A study of Mus musculus with 6 samples.

Results

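The genes described here build the junctions of epithelial cells or help to keep cells epithelial. The set holds 44 genes, listed by name and role: 14 claudins, 8 other tight junction genes, 3 cadherins with the adhesion molecule Epcam, 6 desmosome genes, 6 regulators of the epithelial state, 4 genes of a membrane protease system and 2 apical membrane genes. Among probe sets annotated to a gene's symbol alone, the one brightest on average stood for the gene. All 44 were measured, out of 18193 named genes on the array, and no filter on low values was applied.

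The arrays held RNA from uterine horns of C57BL6J mice, without the cervix, collected 2 weeks after surgery of a kind not given in the sources used here. Control samples (3 arrays) were labelled SF1LsL/+, a transgene for the nuclear receptor SF1 that stays silent without Cre. The SF1 group (3 arrays) was labelled Pgrcre/+ SF1LsL/+, so it carried that transgene together with Cre at the progesterone receptor locus, which is active in uterine epithelium, stroma and muscle. Each array held a pool of RNA from 2 uteri, so both groups share the transgene and only the SF1 group has Cre and an altered Pgr allele. Neither the labels nor the design text state how old the animals were. Pgr itself read 4797 ± 89 intensity units in control and 1893 ± 158 in SF1 (SD, n = 3). The probe set of Nr5a1, the gene for SF1, read 151.69 ± 17.4 and 151.3 ± 0.131, and whether it overlaps the transgene could not be settled, so it does not check the labels. Uterine tissue was recognisable in both groups by smooth muscle Acta2 (11383 ± 395 and 12111 ± 451) and by the epithelial keratin Krt8 (3210.4 ± 282 and 3835 ± 516). In whole uterus, fewer cells of a type and less RNA per cell cannot be told apart.

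Epithelial cells are sealed to each other near their apical surface by tight junctions. There claudins form the strands, some closing the space between cells and others opening pores for ions or water, while ZO proteins (the Tjp genes) and cingulins tie the strands to the cytoskeleton. Below them lie adherens junctions built on E-cadherin and desmosomes that anchor keratin filaments. In the uterine lining these contacts are remodelled across the cycle and at implantation, under estrogen and progesterone.

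Promoter sequences are shown for 5 members, chosen with their levels and motif matches known, so that members with no match, 1 match and several matches stand side by side. The RefSeq promoter table (build GRCm38.p6) held 27 of the 44 members, with 37 start sites, and the 250 bases before each start were searched on both strands. The motifs were the E-box CAGGTG, which Snail and Zeb repressors bind, the SF1 motif CAAGGTCA, the grainyhead motif AACCNGTT, and the palindromic response elements of the estrogen and progesterone receptors. Motif matches are in capitals and all other bases in lower case, 5′ to 3′ along the gene's strand. The windows lie at chrX:139800558-139800807, plus strand (Cldn2), chr16:26371840-26372089, minus strand (Cldn1), chr17:87635729-87635978, plus strand (Epcam), chr5:134946935-134947184, minus strand (Cldn4) and chr7:29281978-29282227, minus strand (Spint2).
Cldn2: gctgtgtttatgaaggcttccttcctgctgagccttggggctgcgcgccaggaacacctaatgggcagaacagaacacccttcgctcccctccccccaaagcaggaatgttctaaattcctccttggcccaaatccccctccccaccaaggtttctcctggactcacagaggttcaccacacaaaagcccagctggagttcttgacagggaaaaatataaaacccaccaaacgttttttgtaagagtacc
Cldn1: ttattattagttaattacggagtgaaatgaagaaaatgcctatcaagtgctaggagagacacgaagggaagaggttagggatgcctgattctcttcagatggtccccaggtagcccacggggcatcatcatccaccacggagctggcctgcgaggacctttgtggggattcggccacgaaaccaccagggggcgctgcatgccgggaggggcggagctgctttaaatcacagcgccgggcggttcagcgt
Epcam: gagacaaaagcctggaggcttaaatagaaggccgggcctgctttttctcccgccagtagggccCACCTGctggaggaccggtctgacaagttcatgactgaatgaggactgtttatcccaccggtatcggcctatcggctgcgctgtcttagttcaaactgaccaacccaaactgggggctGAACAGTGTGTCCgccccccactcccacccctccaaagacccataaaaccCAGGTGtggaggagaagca
Cldn4: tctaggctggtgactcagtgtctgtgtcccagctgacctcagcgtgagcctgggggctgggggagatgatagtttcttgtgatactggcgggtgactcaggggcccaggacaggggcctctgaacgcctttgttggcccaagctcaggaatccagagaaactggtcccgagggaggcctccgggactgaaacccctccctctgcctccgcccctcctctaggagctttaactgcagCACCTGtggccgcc
Spint2: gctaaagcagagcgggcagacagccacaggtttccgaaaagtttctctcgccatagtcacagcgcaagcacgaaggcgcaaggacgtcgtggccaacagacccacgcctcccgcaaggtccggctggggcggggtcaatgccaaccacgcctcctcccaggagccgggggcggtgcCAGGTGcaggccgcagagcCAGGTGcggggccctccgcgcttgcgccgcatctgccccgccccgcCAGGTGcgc
Cldn2, with the greatest rise of the members, and Cldn1, with the second greatest fall, held none of the motifs in these windows. Epcam held 2 E-boxes and a progesterone element, Cldn4 held 1 E-box and Spint2 held 3.

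An E-box stood in 13 of the 37 member windows, against 17.2% of all 32851 promoter windows of the same length. By call, an E-box was found for 5 of 7 members that rose, 0 of 2 that fell and 7 of 18 not called. That is a match in at least 1 window, which 19.4% of the 27025 genes in the table had. The risen members with an E-box were Cldn4, Cldn7, Epcam, F11r and Tjp3. Each of these lost its call in at least 1 fit that left out an array. Cldn2 and Dsp held none. Cdh1, Dsg2, Pkp2 and Esrp2, which also rose, were not in the table, nor were Marveld3 and St14. The grainyhead motif stood in 4 of the 37 member windows, against 1.79% of all windows. They belonged to Cgn, Prom1 (both of its windows) and Rab25, none of which was called. By gene this was 3 of the 27 members in the table, against 2.00% of all genes in it. The progesterone element was found in Epcam (0.387% of all windows), and neither the SF1 motif (1.33%) nor the estrogen element (0.0639%) was found in any member window. A match is a run of letters, not a bound site, and the counts carry no test.

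The epithelial set changed in part. Of 44 members, 13 rose in SF1, 3 fell and 28 were not called at a limma adjusted p under 0.05, adjusted over all 45037 probe sets tested. The share that rose was 29.5%, where 8.37% of all genes rose, and the share that fell was 6.82%, where 8.11% of all genes fell. The median log2 change of the members was 0.17, where that of all genes was -0.05. Fold changes here are differences of log2(intensity + 16), which understate the change of dim genes. At a fold of 2 or more, 2 members rose (Cldn2 and Dsg2, where 2.06% of all genes did so) and 3 fell (Cldn1, Cldn10 and Cdh16, where 0.901% did). For 22 members the lowest SF1 array lay above the highest control array (16.2% of all genes), and for 4 the highest SF1 array lay below the lowest control array (23.7%). Such separation and the calls rest on the same arrays, so where a called member did not overlap, that is no second test. The count of risen members rests on the number of arrays: leaving out control replicate 1 gave 8, leaving out control replicate 3 or SF1 replicate 2 gave 7, and leaving out SF1 replicate 1 gave 6, while the 3 falls were called in each of these fits. The labels describe separate pools of uteri but not separate processing, so p-values measure the spread between these pools.

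**Figure D1:**
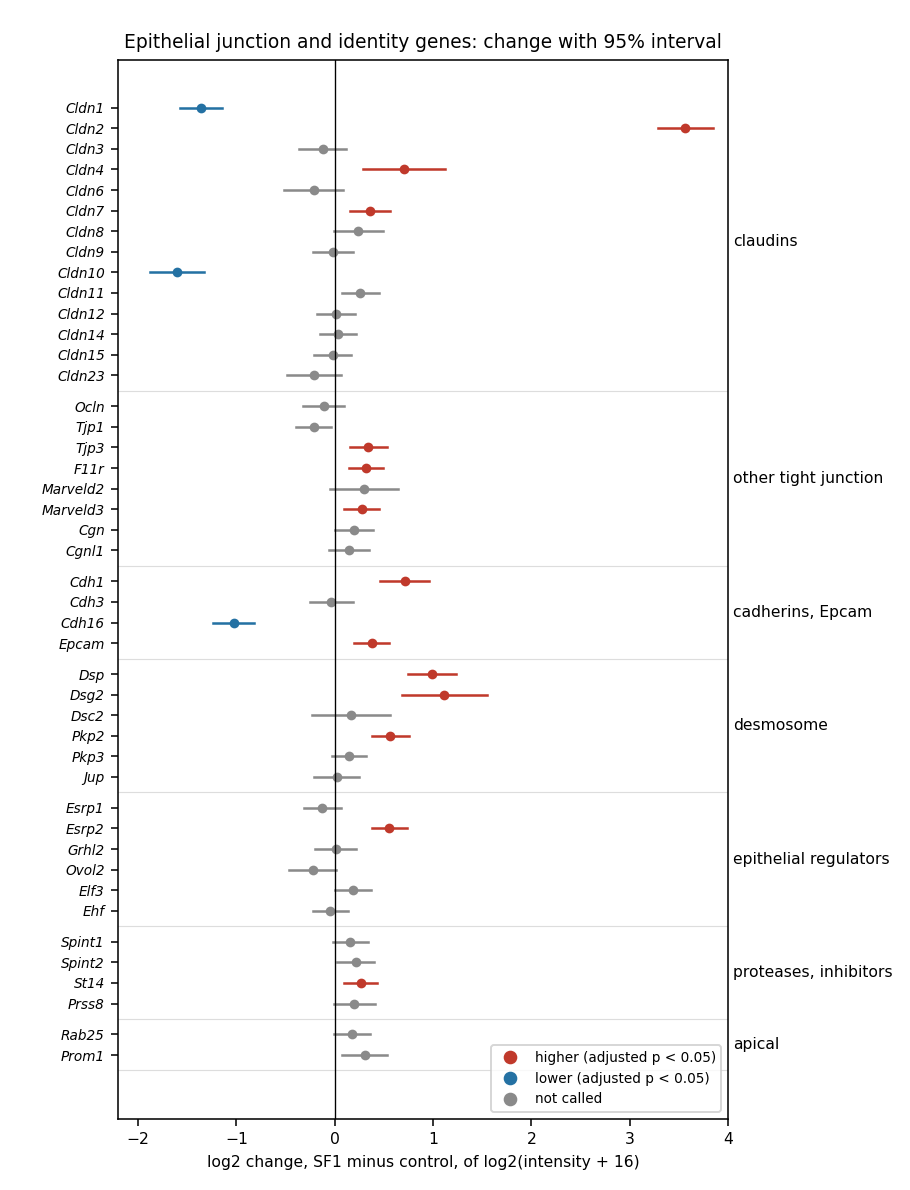
Log2 change (SF1 minus control, horizontal axis) of each of the 44 members with its 95% interval, grouped by role. Cldn2 stands apart at 3.57, Cldn1, Cldn10 and Cdh16 lie at -1.36, -1.60 and -1.03, and most other members lie within 0.6 of 0.

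Claudins moved in both directions, with 3 of 14 risen (8.37% of all genes), 2 fallen (8.11%) and a median log2 change of -0.0023. Cldn2, which forms a pore for cations and water, read 144, 115 and 135 in the control arrays and 2023, 1528 and 1647 in SF1. Every SF1 array was far above every control array. The change was 3.57 ± 0.12 on the log2 scale (SE; adjusted p = 3.07e-06 by limma). The other probe set of Cldn2 read 275, 307 and 275 in control and 251, 346 and 302 in SF1, which overlap (log2 change 0.056, adjusted p = 0.775). The rise thus stood on 1 of 2 probe sets. In control the risen probe set was the dimmer one (mean 131 against 286). It was the brightest on average, and so stood for Cldn2, only through its SF1 values. The size of the rise depends on which is read, and averaging the risen and the uncalled probe set gave 1.81 (adjusted p = 5.56e-06). Cldn10, whose isoforms form ion-selective pores, went the other way. It read 1107, 1441 and 1284 in control and 359.6, 412 and 455 in SF1, without overlap, a log2 change of -1.60 ± 0.12 (adjusted p = 7.53e-05). Its single probe set cannot separate those isoforms here. Cldn1, a barrier claudin, read 1521, 1331 and 1596 in control and 595, 529 and 578 in SF1. The groups lay well apart and the SF1 arrays spread little, with a log2 change of -1.36 ± 0.09 (adjusted p = 4.96e-05).

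Cldn4, a barrier-forming claudin, and Cldn7, a claudin of lateral membranes, rose less. Cldn4 read 286, 374 and 284 in control and 476, 696 and 422 in SF1, highest in SF1 replicate 2. Its log2 change was 0.71 ± 0.18 (adjusted p = 0.0358), which did not pass when control replicate 1 or 3 or SF1 replicate 1 or 2 was left out (highest adjusted p = 0.106) or with a pseudocount of 1 (0.0564). Cldn7 read 1221, 1157 and 1219.7 in control and 1538, 1700.1 and 1409 in SF1, also highest in SF1 replicate 2. It rose by 0.36 ± 0.09 (adjusted p = 0.0304), and among the fits with an array left out it passed only without SF1 replicate 3 (highest adjusted p = 0.091).

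The remaining 9 claudins were not called, with log2 changes between -0.21 (Cldn6) and 0.26 (Cldn11). Cldn3, a barrier claudin, read 1453, 1760.2 and 1731 in control and 1612, 1376 and 1542 in SF1, so the groups overlapped (log2 change -0.12). Cldn4 and Cldn3 are neighbours on chromosome 5 in the gene table used, and the 95% intervals of their changes, 0.29 to 1.12 and -0.36 to 0.11, do not overlap. The difference itself was not tested. Cldn15, another pore-forming claudin, was at 171 ± 8.1 and 169 ± 12.1 (log2 change -0.018). The log2 change was 0.24 for Cldn8, 0.013 for Cldn12, 0.037 for Cldn14 and -0.21 for Cldn23. Cldn9, Cldn14, Cldn11 and Cldn6 were the 4 members whose mean lay below the middle of all probe sets, and Cldn9 was dimmest (48 ± 5.4 and 47 ± 3.1). Cldn11, with 104 ± 8.4 and 128 ± 0.76, did not overlap between groups and lay just outside the threshold (log2 change 0.26, adjusted p = 0.0655).

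**Figure D2:**
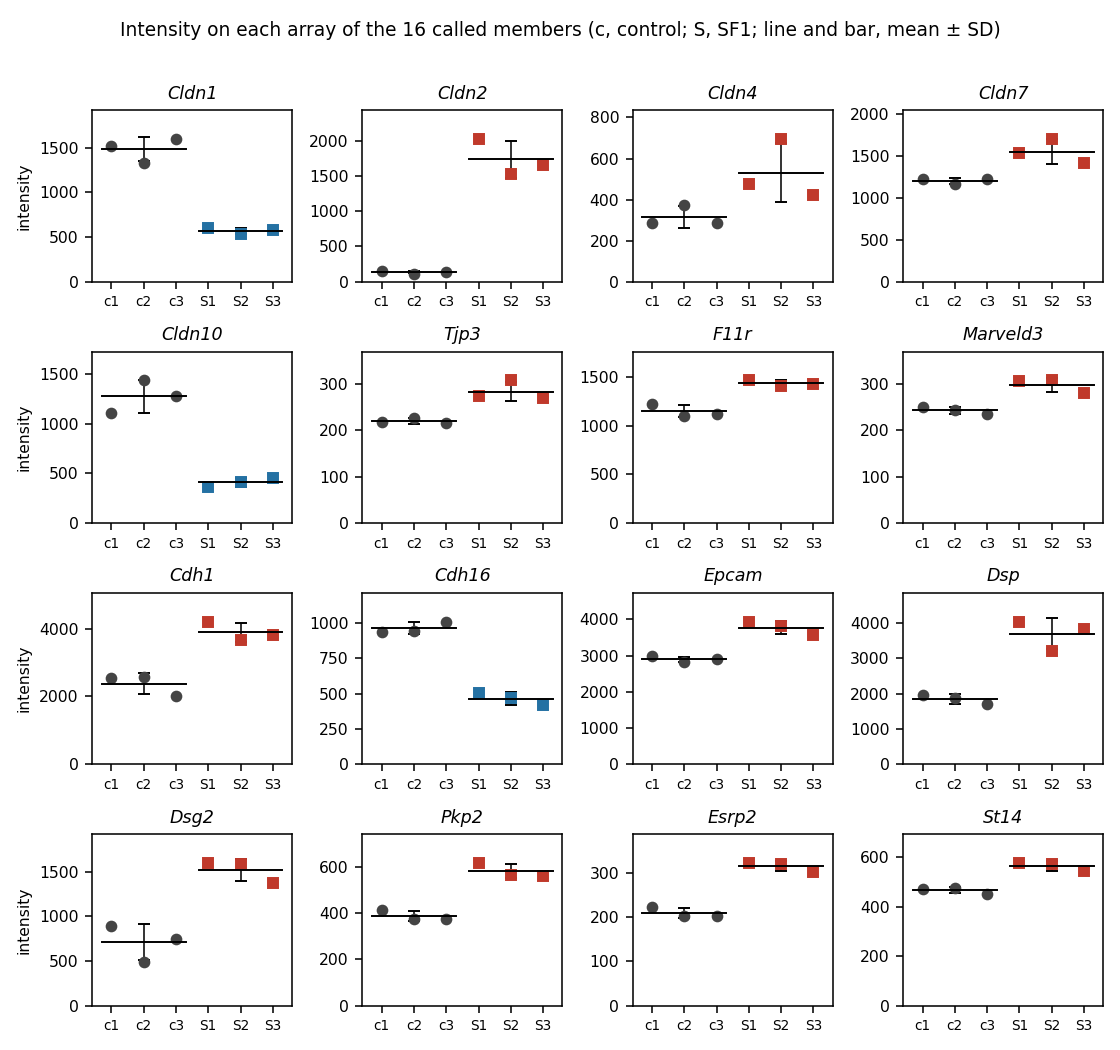
Intensity (linear axis from 0) of the 16 called members on each array, with control arrays as circles and SF1 arrays as squares, and the group mean with its SD. In all 16 panels the SF1 arrays lie entirely above or entirely below the control arrays. The margin is widest in Cldn2 and narrow in Marveld3, Cldn4 and St14. Of all genes, 16.2% lay entirely above and 23.7% entirely below. The calls rest on the same values, so the separation is no further support for them.

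Among the other tight junction genes, 3 of 8 rose (8.37% of all genes) and none fell (8.11%), with a median log2 change of 0.24. F11r, the junctional adhesion molecule JAM-A, read 1219, 1103 and 1123 in control and 1466, 1405 and 1426 in SF1. The arrays did not overlap, and it rose by 0.32 ± 0.08 (adjusted p = 0.0284). Tjp3, the scaffold ZO-3, read 217, 227 and 215 in control and 274, 308 and 269 in SF1, again without overlap. It rose by 0.34 ± 0.08 (adjusted p = 0.0261). Marveld3, a membrane protein related to occludin, read 250.1, 245 and 235 in control and 307, 308 and 280.1 in SF1. Its groups lay close but apart, and it rose by 0.28 ± 0.08 (adjusted p = 0.0483). These calls were fragile. Marveld3 lost its call in all 6 fits that left out an array (highest adjusted p = 0.141), F11r in all but the one without control replicate 1 (0.0937), and Tjp3 when control replicate 1 or 3 or SF1 replicate 1 or 2 was left out (0.0823).

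The larger scaffolds and the strand proteins around the claudins were not called. Tjp1 (ZO-1) read 4122, 4139 and 4405 in control and 3844, 3473 and 3611 in SF1, lower in every SF1 array, but its log2 change of -0.21 missed the threshold (adjusted p = 0.11). Ocln, the gene for occludin, overlapped between groups on its brighter probe set (702 ± 23 and 651 ± 65.5, log2 change -0.11). Its other probe set went the opposite way, at 427 ± 12.9 in control and 504 ± 50.1 in SF1 without overlap. That log2 change of 0.23 was not called either (adjusted p = 0.127). Marveld2, the gene for tricellulin, which sits at tricellular contacts, had a log2 change of 0.30 (adjusted p = 0.224), with 246 in SF1 replicate 1 and 172 and 171 in the other SF1 arrays. The log2 changes of the cingulin genes Cgn and Cgnl1 were 0.20 and 0.15.

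In the adherens junction and adhesion group, Cdh1 and Epcam rose, Cdh16 fell and Cdh3 was not called. Cdh1, the gene for E-cadherin, read 2549, 2563 and 2027 in control and 4208, 3661 and 3800.2 in SF1. No array overlapped, and the log2 change was 0.71 ± 0.11 (adjusted p = 0.00361). Cdh3, the gene for P-cadherin and the neighbour of Cdh1 on chromosome 8, read 376, 434 and 425 in control and 361, 431 and 414 in SF1, so its groups overlapped (log2 change -0.032). The 95% interval was 0.46 to 0.96 for Cdh1 and -0.25 to 0.19 for Cdh3, and the difference between them was not tested. Cdh16, a cadherin of kidney and other tubular epithelia, read 935, 939 and 1009 in control and 507, 468 and 419 in SF1. It fell by 1.03 ± 0.09 on the log2 scale (adjusted p = 0.000168) with no overlap. Epcam, an adhesion molecule of most simple epithelia, read 2973, 2828 and 2893 in control and 3936, 3802 and 3569.7 in SF1. It rose by 0.38 ± 0.08 (adjusted p = 0.0131), and the call was lost without SF1 replicate 1 (adjusted p = 0.0541).

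Desmosome genes held 3 risen members of 6 (8.37% of all genes rose) and none that fell (8.11%). All 6 changes were above 0 on the brightest probe sets (median 0.37). The dimmer probe sets of Dsc2 (-0.24) and Pkp3 (-0.091) and the dimmest of Dsp (-0.052) lay below 0, none of them called. All other probe sets of Dsg2 and Pkp2 lay above 0, as did the second of Dsp. Dsp, the gene for desmoplakin, which links desmosomes to keratin, read 1952, 1881 and 1697 in control and 4037, 3195 and 3838 in SF1. The SF1 mean was 2.00 times the control mean with no overlap, a log2 change of 0.99 ± 0.11 (adjusted p = 0.000492). Dsg2, a desmosomal cadherin, read 897, 491 and 745 in control and 1601, 1584 and 1374 in SF1. The control arrays spread more than the SF1 arrays, without overlap, and the log2 change was 1.12 ± 0.19 (adjusted p = 0.00581). Pkp2, a plakophilin of the desmosomal plaque, read 413, 373 and 376 in control and 617, 564 and 562 in SF1, apart in all arrays. It rose by 0.57 ± 0.08 (adjusted p = 0.00248). All 3 were called in each of the 6 fits that left out an array. The plaque genes Jup (plakoglobin, 0.020) and Pkp3 (0.15) and the desmosomal cadherin gene Dsc2 (0.17) were not called. Dsg2 and Dsc2 therefore differed in call, with 95% intervals of 0.68 to 1.55 and -0.23 to 0.56 that do not overlap, and their difference was not tested.

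Of the 6 regulators of the epithelial state, 1 rose, where 8.37% of all genes did, and their median log2 change was -0.018. Esrp2, a splicing factor that promotes epithelial exons, read 223, 203 and 202 in control and 323, 320.4 and 303 in SF1. The arrays were well separated, with a log2 change of 0.56 ± 0.08 (adjusted p = 0.00205). Its paralogue Esrp1 read 983 ± 78.7 and 899 ± 22.7, and its log2 change of -0.12 was not called. Grhl2, a grainyhead factor that activates Cdh1 and claudin genes, was not called, at 582 ± 27.2 and 587 ± 57. Its log2 change was 0.0088, with a 95% interval from -0.20 to 0.22. Ovol2, a zinc finger repressor of mesenchymal genes, had a log2 change of -0.22. Those of the ETS factor genes Elf3 and Ehf were 0.19 and -0.046. None of these 4 was called.

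The membrane protease system pairs the surface proteases matriptase (St14) and prostasin (Prss8) with the inhibitors Spint1 and Spint2, and it acts on junctions and sodium channels. For all 4 genes the SF1 arrays lay above the control arrays, as they did for 16.2% of all genes. The median log2 change was 0.21, but 1 of the 4 was called, where 16.5% of all genes were called in either direction. St14 read 473, 476 and 453 in control and 577, 573 and 543 in SF1. The groups lay apart by a narrow margin, a rise of 0.26 ± 0.07 (adjusted p = 0.0477). St14 lay just inside the threshold and lost its call in all 6 fits that left out an array (highest adjusted p = 0.137). The log2 change was 0.21 for Spint2, 0.20 for Prss8 and 0.16 for Spint1. Neither apical gene was called. The log2 change of Rab25, a GTPase of apical recycling, was 0.18, and that of Prom1 (CD133), found on membrane protrusions, was 0.30 (adjusted p = 0.0825). Prom1 read 2832, 2588 and 2736 in control and 3678, 3519 and 2928 in SF1, lowest of the SF1 arrays in replicate 3.

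The 28 members without a call are not shown to be unaltered. The 95% intervals of their log2 changes reached from -0.51 to 0.65, and 6 of them had an unadjusted p under 0.05. In 9 of the 28 all SF1 arrays read above all control arrays (9.38% of the 15195 genes without a call did), and in 1 (Tjp1) below (18.6%).

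Members with several probe sets gave a second reading. The 44 members had 84 probe sets, and 21 members had more than 1. Of 9 called members with several, 6 had another probe set called in the same direction, and none had one called the opposite way. These were Dsp, with another probe set at 0.91 (adjusted p = 0.00208), Dsg2 (0.79 and 0.49), Pkp2 (0.42 and 0.36), Marveld3 (0.50), Esrp2 (0.28) and Cldn1 (-0.55, with 2 further dim probe sets at -0.093 and -0.079).

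No second probe set was called for Cldn2, Epcam or F11r. Averaging all probe sets of a gene brought Cldn1 to -0.52, Dsp to 0.61 and Dsg2 to 0.50, all still called, and Epcam (0.16, adjusted p = 0.145), F11r (0.21, 0.0885) and Marveld3 (0.19, 0.098) to values that were not. It added calls for Cldn9 (-0.63, adjusted p = 0.000398), Spint2 (0.25, 0.0221) and Cldn11 (0.26, 0.0373), the last with a single probe set and so the same log2 change as before. Among uncalled members, the other probe set of Spint2 rose by 0.30 (adjusted p = 0.0263), reading 3743, 3862 and 3883 in control and 4696, 4728 and 4694 in SF1. The dimmer probe set of Cldn9 fell, from 42, 50.2 and 39 to 11, 7.7 and 9.0 (log2 change -1.23, adjusted p = 9.98e-05), where the brighter one had a log2 change of -0.021.

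**Figure D3:**
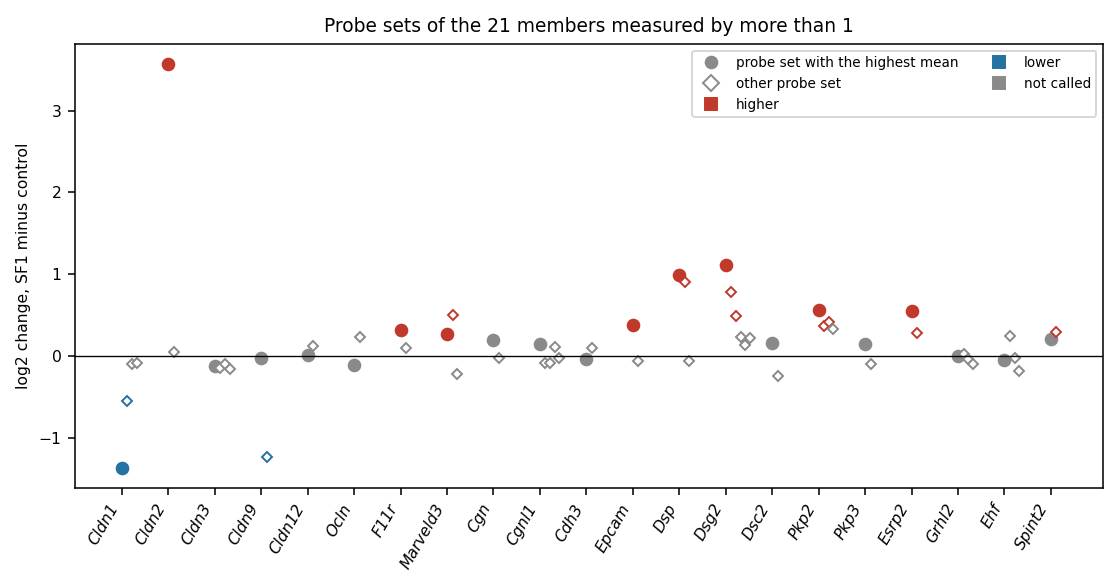
Log2 change (SF1 minus control, vertical axis) of every probe set of the 21 members with more than 1, the brightest as a filled circle and the others as open diamonds. The diamonds of Dsp, Dsg2 and Pkp2 include called ones above 0, while the other probe set of Cldn2 lies at 0.056.

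The called members fell into 9 that were called in each of the 6 fits that left out an array and 7 that were not. The first were Cldn2, Cdh1, Dsp, Dsg2, Pkp2 and Esrp2 among the risen and Cldn1, Cldn10 and Cdh16 among the fallen. Of all genes, 5.09% rose and 4.25% fell in this stricter sense. The second were Cldn4, Cldn7, Tjp3, F11r, Marveld3, Epcam and St14. Each of these fits kept the probe set chosen on all 6 arrays, which for Cldn2 was picked through its SF1 values.

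**Figure D4:**
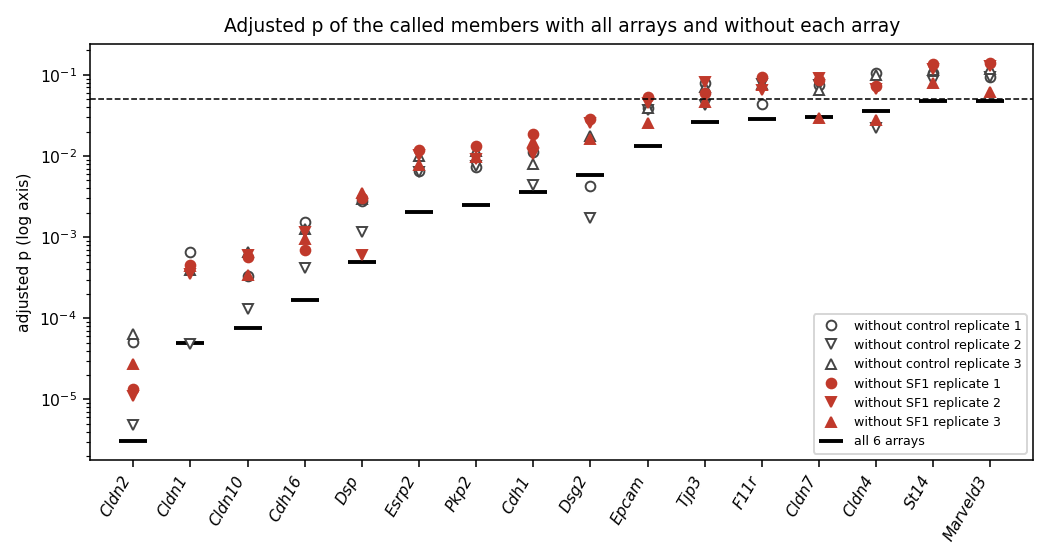
Adjusted p (log axis) of the 16 called members with all 6 arrays (bars) and without each array in turn (symbols), with the threshold of 0.05 dashed. The 9 members from Cldn2 to Dsg2 stay under the line in every fit, and the 7 from Epcam to Marveld3 cross it in at least 1.

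Other junction genes, from lists that do not overlap with the members, were mixed. Counts in this and the following lists are to be read beside the 8.37% of all genes that rose and the 8.11% that fell. In lists this short, counts of 1 or 2 are too few to describe a list. Of 32 further tight junction, adherens junction and desmosome genes measured, 6 rose and 2 fell (median log2 change -0.042). Igsf5, a junctional adhesion molecule, rose by 1.02 (from 215 ± 28.7 to 453 ± 50.7, adjusted p = 0.000668), Ildr2, a relative of the tricellular junction proteins, by 0.97 (0.00356), and the adhesion receptor gene Cxadr by 0.72 (0.00535). Cldn5, the claudin of endothelium and also an endothelial marker here, fell by 0.69 on the log2 scale (adjusted p = 0.00192), and Cldn16 fell by 0.35 on that scale (0.0318). Cldn16 kept its call only without SF1 replicate 3 among the fits with an array left out (highest adjusted p = 0.0979). The fallen count of this list was 1 without any array but SF1 replicate 3, and also 1 with quantile normalization or median centring of all arrays. Of 16 polarity genes 2 rose and 2 fell. Prkcz, an atypical protein kinase C, rose by 0.69 (0.00431) and Llgl2, a basolateral polarity gene, by 0.45 (0.0283). With an array left out, Llgl2 was called only without replicate 2 of either group (highest adjusted p = 0.101), and without any other array 1 rise was left. Amotl1, an angiomotin of the junction, stood at -0.70 (0.000465) and the scaffold gene Pard3 at -0.28 (0.0404). Pard3 was no longer called when any single array was left out (highest adjusted p = 0.122) or under either scaling, which left 1 fall.

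Of 10 hemidesmosome genes measured, Itga6, an integrin that binds laminin, rose (0.62, adjusted p = 0.00208), while Lama3, a laminin chain (-0.97, 0.000165), and Itgb4, the integrin partner of Itga6 in hemidesmosomes (-0.44, 0.0158), fell. Itgb4 was no longer called when control replicate 1, SF1 replicate 1 or SF1 replicate 2 was left out (highest adjusted p = 0.0585), which took the fallen count to 1. Of 8 gap junction genes measured, Gja1 (0.39, adjusted p = 0.00849) and Gjb2 (0.52, 0.00358), both connexins, rose and Gjc1 fell (-0.28, 0.0479). Leaving out any array ended the call of Gjc1 (highest adjusted p = 0.135), and so did quantile normalization and median centring. Among 10 measured genes around the membrane proteases, 3 rose and 2 fell. Scnn1a, a sodium channel subunit, rose by 0.60 (0.0046), Tmprss4, a related surface protease, by 0.54 (0.00309) and Hpn, the gene for the protease hepsin, by 0.43 (0.0261). Met, the receptor for HGF, fell (-0.38, 0.0157), but not when control replicate 1 or SF1 replicate 3 was left out (highest adjusted p = 0.0629). Hgf itself fell too (-0.34, 0.0253). With an array left out, Hpn and Hgf were called only without SF1 replicate 3 (highest adjusted p = 0.095 and 0.0915). The fallen count of that list was 0 without control replicate 1 and 1 without SF1 replicate 1, 2 or 3.

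Other epithelial identity genes rose in 7 of 15 cases and fell in 1 (median log2 change 0.39). Muc1, an apical mucin, rose by 1.93 (from 242 ± 28 to 981 ± 211, adjusted p = 0.000113), the keratin gene Krt7 by 1.80 (1.98e-05) and Mal2, a protein of apical transport, by 1.14 (0.00356). The keratins most used as measures of simple epithelium did not move together. The log2 change was 0.25 for Krt8 and -0.08 for Krt18 (3837 ± 118 and 3628.5 ± 214), neither called, and Krt19 fell by 0.36 on the log2 scale (adjusted p = 0.0355). Krt19 was no longer called when control replicate 1 or 3 or SF1 replicate 1 or 3 was left out (highest adjusted p = 0.114), nor with median centring of all arrays. Other epithelial regulators gave 5 falls and 1 rise among 15 (median -0.19), with 2 rises when SF1 replicate 2 was left out and 4 falls when any array was. Msx1 fell by 1.48 on the log2 scale (2.09e-05), Sox17 by 1.05 on that scale (0.000112) and Tfcp2l1, a relative of the grainyhead factors, by 0.77 on it (0.00316), while Foxa2, the factor of uterine glands, rose by 0.80 (0.00219). Sox17 and Msx1 are also expressed outside epithelium.

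Mesenchymal genes were measured beside the epithelial set because several encode repressors of Cdh1. Of 14, 7 fell and 1 rose (median log2 change -0.36). Snai1, the gene for the repressor Snail, read 182 ± 38.7 in control and 58 ± 5.8 in SF1 (log2 change -1.41, adjusted p = 0.000293). Twist2 changed by -1.54 (1.49e-05), Fn1, the gene for fibronectin, by -1.34 (0.000599), and Cdh2, the gene for N-cadherin, by -0.87 (0.000245). Zeb2 fell by 0.50 on the log2 scale (0.0213), though not when control replicate 1, SF1 replicate 1 or SF1 replicate 3 was left out (highest adjusted p = 0.0761), while Zeb1 (-0.14) and Snai2 (0.069) were not called. S100a4 was the gene of this list that rose (1.07, 0.00192). Several of these genes are expressed mainly in stroma, and in which cells they changed was not measured.

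Markers of the cell types in the tissue moved to differing degrees. All 7 endothelial markers fell. The count was 6 under either scaling and when any array but SF1 replicate 2 was left out, since Pecam1 was then not called (highest adjusted p = 0.123). Their summed intensity lay between 6171 and 6577 in control and between 4029 and 4474 in SF1. Of 7 stromal markers, Pdgfra, Hoxa11 and Dcn fell and 4 were not called, with sums from 49081 to 53721 and from 44796 to 49449. Ciliated cell markers rose in 6 of 7 cases, from sums between 1802 and 2094 to sums between 7255 and 11578. Leukocyte markers rose in 5 of 6 (2825 to 3904 and 5208 to 7575), a count that was 3 when control replicate 3 was left out and 2 when SF1 replicate 1 or 2 was. None of 7 smooth muscle, 7 mesothelial or 8 squamous markers was called, except that 1 squamous marker was called without SF1 replicate 1. Summed levels were 21168 to 23689 and 22231 to 23868 for smooth muscle, 3941 to 4356 and 4530.1 to 4769 for mesothelium, and 1167 to 1239 and 1065 to 1704 for squamous epithelium. No marker lay at the floor of the scale on every array. RNA quality was read from the 3' to 5' signal ratio of beta-actin, at 2.51 ± 0.107 for control and 2.19 ± 0.123 for SF1 (two-sided exact permutation p = 0.1, the smallest that 3 against 3 arrays allow). The same ratio of Gapdh overlapped between groups (1.62 ± 0.0877 and 1.54 ± 0.104, exact permutation p = 0.3). The part that any of these values had in the changes of the epithelial members was not tested.

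**Figure D5:**
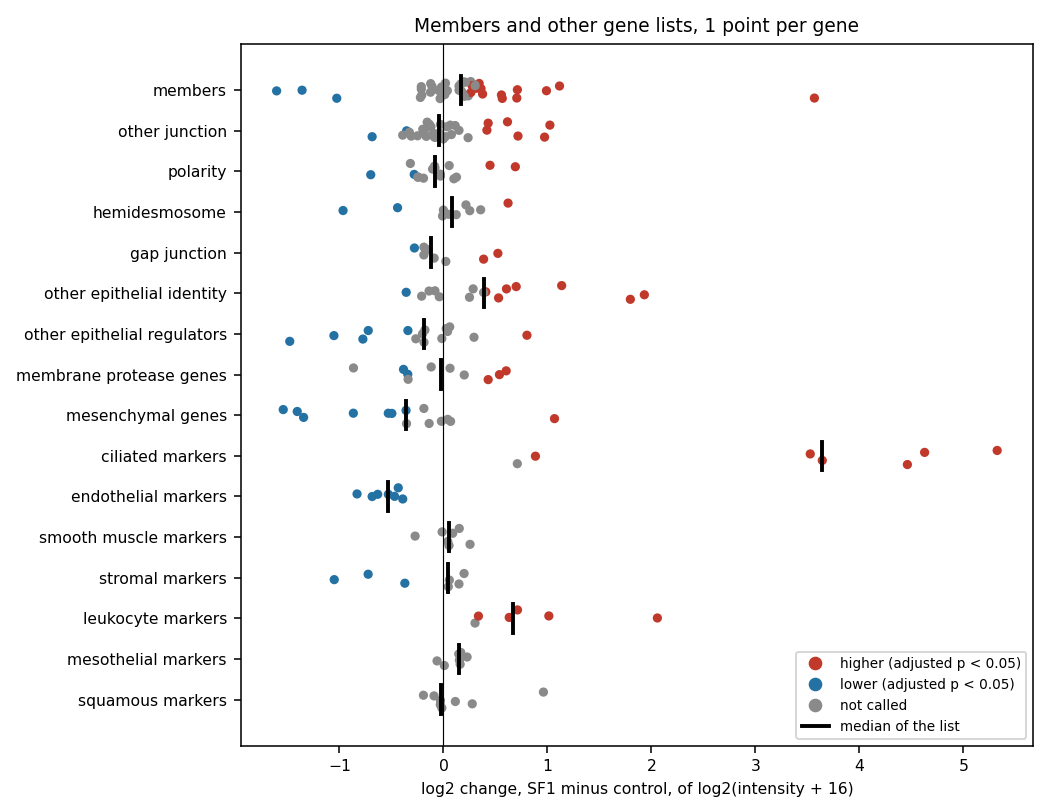
Log2 change (SF1 minus control, horizontal axis) of the members and of the other gene lists, 1 point per gene, with the list median as a bar. The members' median lies at 0.17, that of other epithelial identity genes at 0.39, that of mesenchymal genes at -0.36 and that of ciliated markers at 3.64.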

How the data were processed

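RNA from 6 pools of 2 mouse uteri was hybridised to Affymetrix Mouse Genome 430 2.0 arrays, per the labels. The deposited table holds linear intensities per probe set, from 1 to 25324.74. How the authors summarized and normalized the probes is a step not given in the sources used here, and such choices bear most on dim probe sets. Array medians lay between 149.9 and 162.2 intensity units, at 161.02 ± 1.78 in control and 154.9 ± 4.86 in SF1 (SD), with overlap. The main fit did not rescale the arrays, and what this difference adds to the calls was not tested. The number of arrays limits the precision.

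Of 45101 probe sets, 64 controls were set aside. The platform's annotation table gave 34945 of the rest 1 symbol, 932 several and 9160 none, and symbols were checked through gene IDs against the GRCm38.p6 gene table (0 updated, 204 IDs absent). A gene was represented by the single-symbol probe set with the highest mean log2 value. The transform was log2(intensity + 16), and limma 3.58.1 (lmFit and eBayes) in R 4.3.3 was fitted on all 45037 probe sets with Benjamini-Hochberg adjustment. The threshold for a call was an adjusted p under 0.05. All single-gene p-values are limma's. The fit was tested on simulated arrays.

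The members and lists were chosen with earlier results of these data known, so lists have counts and medians but no test. The rule for named genes took every member, with full values for called members, up to 3 called rises and 3 falls of each other list, marker genes (Krt8 and Krt18 among them; most are given as counts and sums), Pgr and Nr5a1. Cdh2, Zeb1, Zeb2 and Snai2 fall outside it and were chosen after their values were seen. Alternatives comprised median centring, quantile normalization, restriction to brighter probe sets, pseudocounts of 1 and 64, the replicate number as a block, a trended robust eBayes, array weights, averaging of all probe sets per gene, an adjusted p under 0.01, a fold of at least 1.5, and each array left out. Python 3.11.15, pandas 2.3.3 and matplotlib 3.10.9 were used for promoters and figures.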

Additional observations from a re-analysis of the deposited data

How the results depend on the processing

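The 13 risen members became 8 with the replicate block, 6 at an adjusted p under 0.01 and 5 with a fold of at least 1.5, and between 6 and 11 without an array. For all genes, 1523 rises became 1139 with the block, 848 at 0.01, 780 with that fold and between 1025 and 1294 without an array. Between 10 and 15 rose under the other 8 refits. The fallen members numbered 3 or 4 in every alternative, and the median log2 change stayed between 0.12 and 0.22. Some uncalled members gained a call. Tjp1 fell with quantile normalization and the trended robust eBayes, and Cldn9 fell with averaged probe sets. Cldn11 rose with both rescalings and averaged probe sets, and Spint2 with averaged probe sets and the trended robust eBayes. Prom1 rose with the brighter probe sets, the trended robust eBayes and without SF1 replicate 3. The 9 members called in all left-out fits were also called in all 9 refits of the 6 arrays. Whether the replicate numbers pair the pools is not known. Deviations of same-numbered arrays from their group means correlated at -0.063, -0.10 and -0.18, so no shared shift was seen. These values cannot settle whether same-numbered pools were processed together. Cldn4, called without the replicate block, was also called with it, while Cldn7, Tjp3, F11r, Marveld3 and St14 were not.

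Changes of sign occurred in 30 of 744 member values, all of 10 uncalled members close to 0. Quantile normalization gave 0.028 for Cldn9, 0.032 for Cldn15 and 0.012 for Cdh3, and median centring gave 0.030, 0.033 and 0.019 for these and 0.0056 for Ehf. Array weights gave 0.015 for Cdh3 and -0.037 for Grhl2. Averaging the probe sets of each gene gave 0.060 for Ocln, 0.033 for Cdh3, -0.037 for Dsc2, -0.024 for Grhl2 and 0.00022 for Ehf. Without 1 array the values ranged from -0.065 to 0.047 for Cldn9, -0.041 to 0.069 for Cldn12, -0.0037 to 0.080 for Cldn14, -0.071 to 0.016 for Cldn15, -0.094 to 0.040 for Cdh3, -0.021 to 0.27 for Dsc2, -0.056 to 0.085 for Jup and -0.060 to 0.076 for Grhl2. The cause of these shifts was not tested. Over all genes, 1523 rose and 1475 fell, against 1782 and 1056 with median centring and 1689 and 1223 after quantile normalization. The filter to brighter probe sets left 4 members without a value. With 3 pools a group, changes of a size like that of St14 lie at the limit of what was called.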
